A study of Mus musculus with 48 samples.

Results

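Dissociated dorsal root ganglion (DRG) neurons were compared after 42 h in culture with a control siRNA (4 libraries) and at time 0 (4 libraries), and the changes were read across pathways, cell classes and gene families. The libraries were taken by their labels alone, and they are 8 of the 48 RNA-seq libraries in the series. All 48 libraries came from neuron-enriched DRG cultures of adult wildtype mice kept in Neurobasal-A with B27 supplement, and the 12 groups of 4 differ in the siRNA or expression construct that the cells received. The time 0 cells were also labelled as a DRG culture but received no siRNA. The cells of the other group were transfected right after isolation with a control siRNA pool (ON-TARGETplus, DharmaFECT 2) and lysed after 42 h. This comparison and the gene lists below were chosen with earlier results of these data known. Time in culture and transfection cannot be told apart. The labels do not say whether replicates came from separate animals, so the p-values below measure the spread between these samples, which may be technical.

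The DRG holds the cell bodies of sensory neurons: small nociceptors that detect heat, chemicals and painful pressure, and larger neurons that detect touch and limb position. Each cell body is wrapped by satellite glia, and its axon runs with Schwann cells, vessels, fibroblasts and macrophages. Dissociation cuts the axon close to the cell body, and the neuron then has to rebuild its membrane, cytoskeleton and axon on a new surface, away from its target tissue and most of its glia. The channels, receptors, transmitters and metabolic enzymes discussed below are those by which such a neuron is usually described in the intact ganglion.

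The 8 libraries held 3437120 to 6621566 deposited estimated counts each over 34183 genes, and 13448 genes had enough counts to be tested. Levels are given in CPM, the counts of each library brought to a common total with trimmed-mean (TMM) scaling. The deposited values had been weighted for transcript length, so these CPM can be compared between genes. Unless stated otherwise, a gene rose or fell when edgeR's quasi-likelihood test gave a Benjamini-Hochberg adjusted p under 0.05; ± is the SD over 4 libraries for a level and the SE of the fit for a log2 fold change (42 h minus time 0). By that rule 3855 genes rose (28.7% of those tested) and 3926 fell (29.2%). Of these, 1456 rose by at least 2-fold (10.8%) and 1803 fell by at least 2-fold (13.4%). The median log2 fold change of all tested genes was 0.011. The first principal component carried 73.4% of the variance and separated the groups, and Spearman correlations between libraries were 0.974 to 0.98 within groups and 0.862 to 0.875 between them. With 57.9% of tested genes called in either direction, the count for each gene list is read against the shares above.

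By median log2 fold change the broad neuronal genes fell little, while the genes that distinguish sensory neuron classes fell far more. Summed levels, as the ratio of 42 h to time 0, were more uneven. The ratio was 0.756 for pan-neuronal genes and 0.744 for peptidergic nociceptors. It was 0.936 for the cold-sensing list, 4.0 for Sst and Nppb neurons and 0.256 to 0.5 for the other sensory classes. The 4.0 rests on Nts, the only riser in a list where 6 of 8 genes fell. The 0.936 likewise rests on Penk, the only riser in a list where 3 of 4 tested genes fell. Among 16 pan-neuronal genes 1 rose, 9 fell and 6 did not pass (median log2 fold change -0.42), against 28.7% rising and 29.2% falling among all tested genes. Pan-neuronal genes summed to 20886 to 22842 CPM at time 0 and 14918 to 18610.0 CPM at 42 h, above every glial, vascular and immune list. Such sums depend on which genes each list holds, and the series has no unenriched ganglion. They therefore cannot check the label of a neuron-enriched culture. Stmn2, a tubulin-binding protein of growing axons, was at 1720.1, 1707, 1755 and 1597 CPM in the time 0 libraries and 1644, 1872, 1548 and 1526 CPM at 42 h (log2 fold change -0.04 ± 0.07, adjusted p = 0.65), and the groups overlapped. Rbfox3, the splicing regulator known as NeuN, was at 281, 273, 279 and 258 CPM in the time 0 libraries and 54.2, 60.2, 42.96 and 46.4 CPM at 42 h (log2 fold change -2.42 ± 0.10, adjusted p = 1.3e-08). Where all 8 library values are listed, here and below, the 4 values at 42 h lie wholly above or wholly below those at time 0 unless stated. Of all tested genes, 26.2% had all 4 libraries at 42 h above all 4 at time 0 and 26.9% had them all below. In bulk RNA, fewer cells of a type and less RNA of that type per cell cannot be told apart, here and for every class below.

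In the marker list for non-peptidergic nociceptors, 0 rose, 10 fell and 2 did not pass of 12 tested genes, and the median was -3.24. Gfra2, the neurturin co-receptor, was at 234, 180.1, 258 and 201 CPM in the time 0 libraries and 18.7, 17.9, 31.7 and 26.7 CPM at 42 h (log2 fold change -3.19 ± 0.18, adjusted p = 1e-07). Grik1, a kainate receptor subunit, went from 303 ± 55.6 to 35.2 ± 3.57 CPM. P2rx3, the ATP-gated channel of the same neurons, did not pass the test and was at 379 ± 60.01 CPM before and 459 ± 42.3 CPM after (log2 fold change 0.27 ± 0.11, adjusted p = 0.05). P2rx3 passed, as higher, in 12 of 19 alternative analyses. Ret, the signalling receptor for GDNF-family ligands, did not pass either (-0.20 ± 0.08), and it passed, as lower, in 3 of 19. The tested markers that fell had log2 fold changes of -2.29 to -7.14.

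The remaining sensory classes showed the same uneven pattern. Of 11 peptidergic nociceptor genes 2 rose, 7 fell and 2 did not pass (median -1.23), and the 2 that rose were Adcyap1 and Calcb, both peptide genes. Of 15 genes of large-diameter mechanoreceptors and proprioceptors 1 rose, 13 fell and 1 did not pass (median -1.69). Pvalb, a calcium buffer of proprioceptors, was at 80.03, 115, 43.3 and 144 CPM in the time 0 libraries and 10.8, 38.6, 3.91 and 33.6 CPM at 42 h (log2 fold change -2.10 ± 0.54, adjusted p = 0.0058). Spp1, the secreted protein osteopontin, rose within that list from 68.7 ± 47.98 to 257 ± 24.6 CPM. Among 7 genes of C-fibre low-threshold mechanoreceptors 0 rose, 6 fell and 1 did not pass (median -1.89), with Th, tyrosine hydroxylase, going from 196 ± 53.3 to 46.7 ± 4.47 CPM. Among 8 genes of Sst and Nppb neurons 1 rose, 6 fell and 1 did not pass (median -1.62), and Nts was the riser. Only 4 genes of the cold-sensing neuron list could be tested: Penk rose, and Cdh8, Trpm8 and Gpr26 fell.

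**Figure D1:**
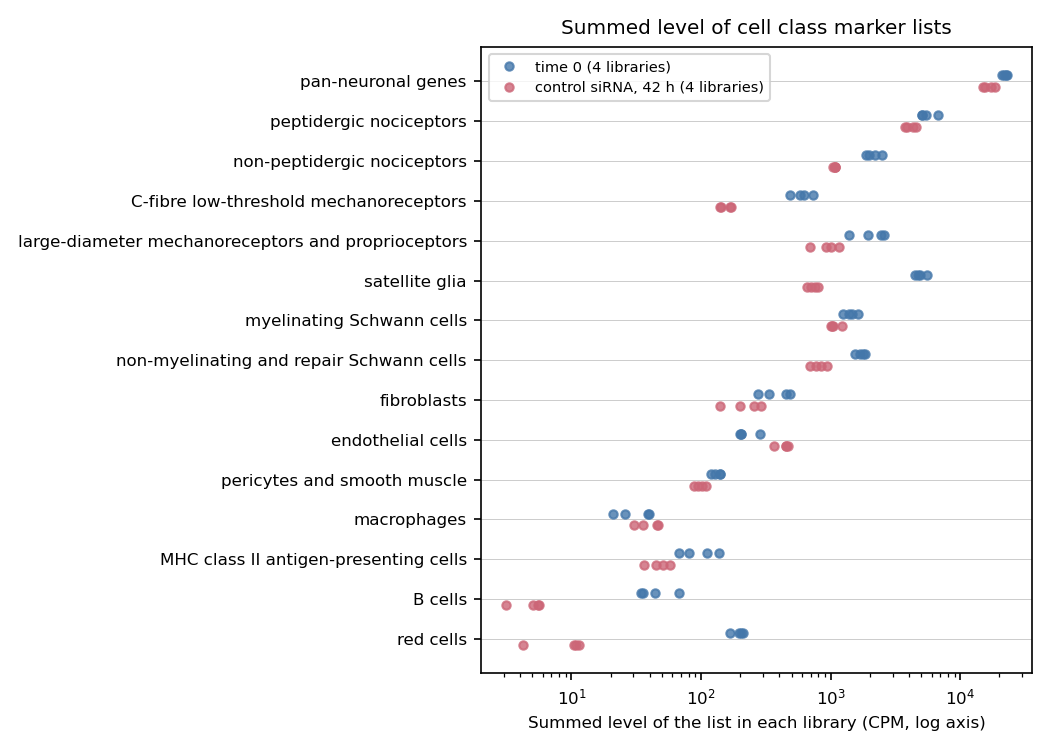
Summed level of each cell class marker list in each library (CPM, log axis), with time 0 and control siRNA libraries at 42 h as separate colours. The satellite glia sum spanned 4426 to 5480.5 CPM at time 0 and 659.5 to 798 CPM at 42 h, and the endothelial sum 198 to 283 CPM and 365 to 466 CPM.

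Glial genes did not move as a block. Of 12 satellite glia genes 1 rose, 9 fell and 2 did not pass (median -1.22). Fabp7, a brain-type fatty acid binding protein of satellite glia, was at 458, 401, 515 and 518 CPM in the time 0 libraries and 11.96, 7.35, 13.9 and 12.7 CPM at 42 h (log2 fold change -5.38 ± 0.16, adjusted p = 1.3e-09). Apoe, the lipid carrier of glia, went from 3858 ± 388 to 252 ± 76.8 CPM. Against these, Glul, glutamine synthetase, rose from 263 ± 19.9 to 361 ± 55.9 CPM, and the gap junction gene Gja1 did not pass (-0.20 ± 0.23). Glul is also expressed outside glia, and which cells carried its RNA was not tested.

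Of 12 myelin genes 1 rose, 9 fell and 2 did not pass (median -1.16). Pmp22, a peripheral myelin protein, did not pass and was at 875 ± 77.2 CPM before and 872 ± 82.4 CPM after (-0.01 ± 0.08). The gap junction gene Gjb1 was the riser, from 1.36 ± 0.603 to 15.9 ± 5.98 CPM. Of 9 genes of non-myelinating and repair Schwann cells 5 rose, 3 fell and 1 did not pass (median 0.62). The summed level of the list went the other way, from 1547 to 1827.5 CPM at time 0 to 687 to 938 CPM at 42 h. The 3 that fell, S100b, Ngfr and Scn7a, were its genes of highest level. The transcription factor Sox10, shared by all peripheral glia, was at 35.1, 38.01, 32.8 and 27.96 CPM in the time 0 libraries and 55.4, 63.6, 60.9 and 72.7 CPM at 42 h (log2 fold change 0.92 ± 0.12, adjusted p = 5e-05). Sox2, a factor of immature Schwann cells, went from 8.74 ± 2.195 to 23.9 ± 3.72 CPM. In the same list S100b fell (-1.05 ± 0.16), as did Ngfr (-1.47 ± 0.08), the p75 neurotrophin receptor that neurons express as well. Sox10, Sox2 and Foxd3 were thus higher at 42 h, while S100b, Ngfr and Scn7a of the same list were lower. Egr2, the transcription factor of myelination (-1.08 ± 0.24), was also lower, along with most myelin structural and satellite glia genes.

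Vessel genes were higher at 42 h. Of 12 endothelial genes 10 rose, 1 fell and 1 did not pass (median 1.13), and their summed level was 198 to 283 CPM at time 0 and 365 to 466 CPM at 42 h. Pecam1, an adhesion protein of endothelial junctions, was at 10.9, 12.2, 12.2 and 11.15 CPM in the time 0 libraries and 58.7, 66.1, 78.3 and 45.7 CPM at 42 h (log2 fold change 2.42 ± 0.17, adjusted p = 4.3e-07). Cdh5, VE-cadherin, went from 11.7 ± 1.98 to 41.6 ± 3.895 CPM. The exception that fell was Flt1, a VEGF receptor (-0.95 ± 0.23). The list for pericytes and smooth muscle held 6 tested genes, of which 0 rose, 2 fell and 4 did not pass. Fibroblast genes were split, since 4 rose, 2 fell and 4 did not pass of 10: Postn, a matricellular protein, went from 20.1 ± 5.01 to 67.6 ± 32.8 CPM, and Apod, a lipid carrier, from 234 ± 77.5 to 41.9 ± 15.9 CPM.

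Macrophage transcripts were scarce in both groups. Of 5 tested macrophage genes 2 rose (Cd68 and Csf1r), 2 fell (C1qa and C1qb) and 1 did not pass. Csf1r, the smaller of the 2 rises, had a log2 fold change of 1.51, and its groups did not overlap. The macrophage list summed to 21.1 to 39.9 CPM at time 0 and 30.6 to 46.3 CPM at 42 h. Its members C1qa and C1qc were at 0 in all 4 libraries at 42 h. For C1qa the level was at least 12.6-fold lower, taking 3 reads over the group as the floor. Cd68, a lysosomal glycoprotein used as a macrophage marker, was instead at 1.51, 0.512, 0.464 and 1.03 CPM in the time 0 libraries and 22.8, 38.2, 25.6 and 30.3 CPM at 42 h (log2 fold change 5.16 ± 0.32, adjusted p = 1.9e-07). Of 5 genes of MHC class II presentation 1 rose, 4 fell and 0 did not pass. Cd74, the class II invariant chain, went from 24.7 ± 8.05 to 1.01 ± 0.905 CPM. Haemoglobin genes, whose near-identical copies can share reads, summed with the other red cell genes to 168 to 209 CPM at time 0 and 4.21 to 11.4 CPM at 42 h. Mast cell and adipocyte lists had no testable gene.

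Voltage-gated channels were among the most uniformly lower families. Of 14 sodium channel genes 0 rose, 12 fell and 2 did not pass (median -2.18). Scn10a encodes Nav1.8, the tetrodotoxin-resistant channel of nociceptors, and was at 674, 614, 748 and 593 CPM in the time 0 libraries and 92.4, 82.8, 87.4 and 79.8 CPM at 42 h (log2 fold change -2.94 ± 0.09, adjusted p = 1.3e-09). Scn11a, encoding Nav1.9, went from 361 ± 42.96 to 21.01 ± 1.17 CPM. Scn9a, which encodes Nav1.7, fell less, from 154 ± 4.12 to 94.7 ± 6.82 CPM (-0.70 ± 0.07). Of the pore-forming channels with the highest level at time 0, Scn10a and Scn11a ranked above Scn9a, and at 42 h the order was Scn9a, Scn10a and Scn11a. The levels of Scn9a and Scn10a at 42 h overlapped, at 90.4, 87.5, 101 and 99.98 CPM and 92.4, 82.8, 87.4 and 79.8 CPM. Scn2a and Scn3a, both low throughout, did not pass.

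Potassium channels moved in the same direction. Of 34 voltage-gated and inward-rectifier genes 0 rose, 31 fell and 3 did not pass (median -1.85), and 25 of them fell by at least 2-fold, against 13.4% of all tested genes. Kcna2, a delayed rectifier found beside the nodes of myelinated axons, was at 105, 129.7, 92.7 and 134 CPM in the time 0 libraries and 5.86, 8.68, 7.01 and 8.99 CPM at 42 h (log2 fold change -3.89 ± 0.17, adjusted p = 1.4e-08). Kcns1, a modulatory subunit that forms no channel alone, went from 58.2 ± 15.5 to 2.63 ± 1.33 CPM. Of 19 leak, calcium-activated and sodium-activated genes 2 rose, 10 fell and 7 did not pass (median -0.75).

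Most calcium channel subunits fell. Of 19 genes 1 rose, 16 fell and 2 did not pass (median -1.11), and the riser was Cacna2d1, the auxiliary subunit bound by gabapentin. Cacna2d1 was at 101, 95.5, 107 and 96.5 CPM in the time 0 libraries and 130.5, 124, 132 and 143 CPM at 42 h (log2 fold change 0.40 ± 0.07, adjusted p = 0.00067). The related subunit Cacna2d2 went from 31.97 ± 4.03 to 4.96 ± 1.25 CPM and the T-type pore subunit Cacna1i from 8.196 ± 2.79 to 0.643 ± 0.262 CPM. The difference between the 2 auxiliary subunits was not tested.

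The TRP and Piezo channels, which detect heat, irritants and stretch, held 2 risers among mostly falling members: 2 rose, 10 fell and 2 did not pass of 14 (median -2.09). Piezo1, a stretch-gated channel of many non-neuronal cells, was at 2.502, 3.63, 4.801 and 2.104 CPM in the time 0 libraries and 19.03, 10.4, 15.8 and 9.04 CPM at 42 h (log2 fold change 2.04 ± 0.32, adjusted p = 0.00023). Piezo2, the touch channel of sensory neurons, was at 205, 207, 199.7 and 219 CPM in the time 0 libraries and 93.1, 105, 91.9 and 102 CPM at 42 h (log2 fold change -1.08 ± 0.07, adjusted p = 2.9e-07). Neither gene's groups overlapped, and Piezo2 remained the more abundant per length at 42 h. Trpv1, the capsaicin receptor, went from 129.7 ± 17.1 to 16.8 ± 4.87 CPM, Trpa1, the irritant receptor, from 60.4 ± 21.55 to 5.42 ± 2.01 CPM, and Trpv2 rose slightly from 84.7 ± 6.07 to 123 ± 9.299 CPM.

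Ligand-gated channels followed. Of 10 GABA and glycine receptor subunits 0 rose, 6 fell and 4 did not pass (median -1.60). Of 17 glutamate receptor subunits 1 rose, 13 fell and 3 did not pass (median -0.94). In the mixed list of nicotinic, serotonin, purinergic and acid-sensing channels, 4 rose, 14 fell and 1 did not pass of 19 (median -1.51). Chrna6, a nicotinic subunit, was at 74.6, 68.4, 77.2 and 58.6 CPM in the time 0 libraries and 0.821, 1.37, 0.9295 and 0.648 CPM at 42 h (log2 fold change -6.09 ± 0.19, adjusted p = 1.4e-09), which was the largest fall in the list. P2rx7, an ATP-gated channel that opens at high ATP, rose from 6.62 ± 2.35 to 24.6 ± 8.51 CPM, and P2rx4 from 41.4 ± 5.07 to 93.2 ± 11.2 CPM. Of the acid-sensing channels, Asic3 went from 151 ± 9.97 to 36.5 ± 5.76 CPM.

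The axon initial segment and node of Ranvier, where these channels are clustered, lost transcript in 15 of 16 genes, with none rising (median -1.28; 10 fell by at least 2-fold). Ion pumps and chloride transporters also fell in 15 of 23 cases against 1 rise.

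**Figure D2:**
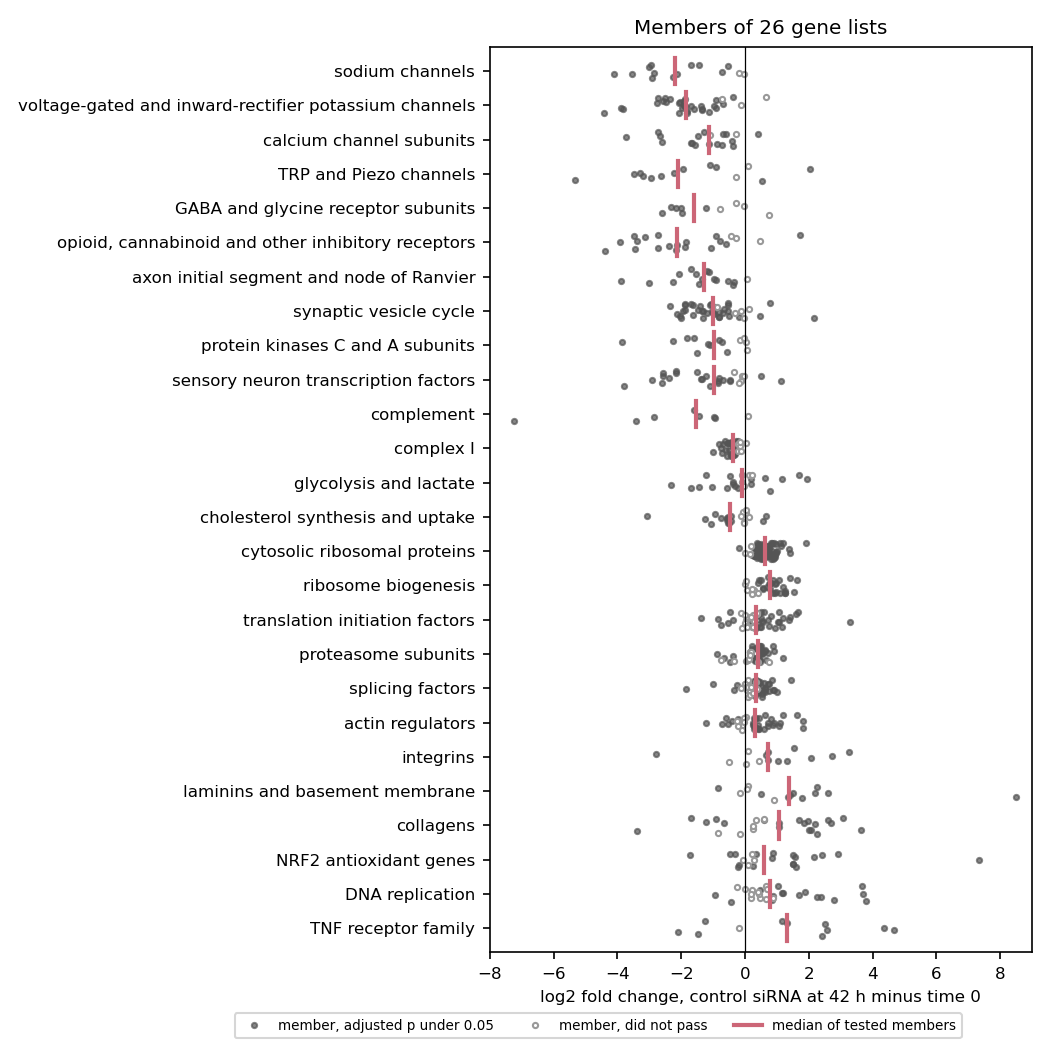
Each tested member of 26 gene lists by its log2 fold change, control siRNA at 42 h minus time 0; filled points passed the test, open points did not, and bars mark the median of tested members. Medians ran from -2.18 for sodium channels to 1.37 for laminins and basement membrane.

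Receptors that damp sensory neurons fell almost throughout. Of 21 inhibitory G protein-coupled receptors 1 rose, 17 fell and 3 did not pass (median -2.12). Oprm1, the mu opioid receptor, was at 34.9, 35.8, 43.6 and 40.98 CPM in the time 0 libraries and 11.6, 8.61, 7.59 and 8.101 CPM at 42 h (log2 fold change -2.12 ± 0.16, adjusted p = 6.7e-07). Oprd1, the delta opioid receptor, went from 14.04 ± 1.01 to 1.24 ± 0.49 CPM, and Adora1, the adenosine A1 receptor, from 98.3 ± 5.997 to 21.8 ± 3.42 CPM. The riser was Adra2a, an adrenergic receptor coupled to the same inhibitory G proteins, at 4.34, 4.81, 7.296 and 9.58 CPM in the time 0 libraries and 27.8, 23.03, 19.5 and 17.03 CPM at 42 h (log2 fold change 1.74 ± 0.25, adjusted p = 0.00011). None of these 4 genes had overlapping groups.

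Excitatory and inflammatory receptors were more mixed: 5 rose, 14 fell and 6 did not pass of 25 (median -0.73). Cckbr, a cholecystokinin receptor, was at 0.543, 0.376, 0 and 0.8288 CPM in the time 0 libraries and 27.98, 21.98, 25.5 and 21.9 CPM at 42 h (log2 fold change 5.59 ± 0.36, adjusted p = 2.3e-07). The other cholecystokinin receptor, Cckar, fell from 28.95 ± 4.54 to 7.18 ± 2.01 CPM. Calcrl, the core of the CGRP receptor, rose from 1.71 ± 0.481 to 6.42 ± 2.85 CPM. It is also an endothelial gene, and which cells carried its RNA was not tested. Lpar3 and Lpar5, receptors for lysophosphatidic acid, fell by 19.2-fold and 28.3-fold.

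Genes that carry or regulate receptor signals inside the cell were mostly lower as well. Of 17 regulators of G protein signalling 3 rose, 13 fell and 1 did not pass (median -0.82). Rgs20 was at 3.53, 2.502, 2.74 and 3.34 CPM in the time 0 libraries and 45.4, 47.6, 43.97 and 40.03 CPM at 42 h (log2 fold change 3.86 ± 0.15, adjusted p = 6.9e-09) and Rgs8 went from 36.9 ± 7.81 to 1.39 ± 1.68 CPM. Of 14 subunits of protein kinases C and A 0 rose, 10 fell and 4 did not pass (median -0.97), and Prkcq fell most, from 83.8 ± 11.2 to 5.72 ± 1.92 CPM. Of 20 phospholipases C and diacylglycerol kinases 2 rose, 12 fell and 6 did not pass (median -0.76). Plcb3, the phospholipase C beta that couples many receptors to calcium release in nociceptors, was at 633, 564, 784 and 613 CPM in the time 0 libraries and 52.6, 56.4, 58.9 and 57.2 CPM at 42 h (log2 fold change -3.52 ± 0.11, adjusted p = 1.3e-09). Phosphodiesterases and adenylyl cyclases were split between 4 rises and 13 falls among 25.

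Among 26 genes of calcium stores and calmodulin signalling 3 rose, 17 fell and 6 did not pass (median -0.83). Camk1, a calmodulin-dependent kinase, was at 56.1, 59.5, 61.3 and 52.95 CPM in the time 0 libraries and 337, 340.3, 308 and 338 CPM at 42 h (log2 fold change 2.52 ± 0.07, adjusted p = 1.1e-09). Camk2a, the kinase subunit best known from synapses, was at 169, 136, 187 and 143 CPM in the time 0 libraries and 15.7, 19.4, 23.8 and 15.8 CPM at 42 h (log2 fold change -3.06 ± 0.15, adjusted p = 3.3e-08). These members moved in opposite directions without overlap, and their order reversed: Camk2a was the more abundant per length at time 0 and Camk1 at 42 h.

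Transmitter release genes fell while several peptide precursors rose strongly. Of 41 genes of the synaptic vesicle cycle 3 rose, 33 fell and 5 did not pass (median -1.01). Snap25, a membrane fusion protein, was at 1096, 1212, 939 and 1308 CPM in the time 0 libraries and 408, 554, 397 and 473 CPM at 42 h (log2 fold change -1.31 ± 0.12, adjusted p = 4.9e-06). Rph3a, a Rab3 effector on vesicles, went from 357 ± 13.9 to 70.6 ± 12.96 CPM. Syt4, a synaptotagmin of dense-core and growth-related vesicles, rose instead and was at 203, 177, 211 and 190.1 CPM in the time 0 libraries and 933, 798, 923 and 821 CPM at 42 h (log2 fold change 2.15 ± 0.08, adjusted p = 5e-09). Syt1, the calcium sensor of fast release, fell from 227 ± 14.3 to 92.2 ± 4.01 CPM.

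Of 20 peptide and granin precursors 10 rose, 8 fell and 2 did not pass (median 0.50). Nts, the neurotensin precursor, was at 10.7, 10.4, 9.48 and 16.8 CPM in the time 0 libraries and 509, 414, 545 and 518 CPM at 42 h (log2 fold change 5.39 ± 0.16, adjusted p = 1.3e-09). Npy, the neuropeptide Y precursor, was at 2.04, 1.03, 0 and 1.14 CPM in the time 0 libraries and 61.2, 70.2, 51.6 and 33.3 CPM at 42 h (log2 fold change 5.64 ± 0.42, adjusted p = 8.1e-07). Adcyap1, the PACAP precursor, was at 123, 122, 197 and 138 CPM in the time 0 libraries and 1368, 1722, 1530.2 and 1432 CPM at 42 h (log2 fold change 3.39 ± 0.15, adjusted p = 1.8e-08). In all 3 genes every library at 42 h was above every library at time 0. Vgf, a precursor of secreted peptides that responds to growth factors, went from 225 ± 29.3 to 1135 ± 127 CPM. Crh was at 0 in the 4 time 0 libraries and at 4.33, 3.43, 2.98 and 3.03 CPM at 42 h, at least 13.3-fold higher taking 3 reads over the group as the floor.

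The classical peptide of pain fibres moved the other way. Tac1, the substance P precursor, was at 641, 552, 811 and 538 CPM in the time 0 libraries and 116, 103, 135 and 98.8 CPM at 42 h (log2 fold change -2.49 ± 0.14, adjusted p = 1.2e-07). Calca, encoding CGRP alpha, went from 3617 ± 473 to 1696 ± 200.1 CPM, while Calcb, encoding CGRP beta, rose from 311 ± 46.2 to 423 ± 71.5 CPM. The granins Chga (-1.29 ± 0.10) and Chgb (-1.57 ± 0.20) fell, and Scg2 rose (0.56 ± 0.08). Among 12 peptide processing genes 5 rose, 6 fell and 1 did not pass, and Scg3, which sorts cargo into granules, went from 1192 ± 152 to 416 ± 36.3 CPM.

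**Figure D3:**
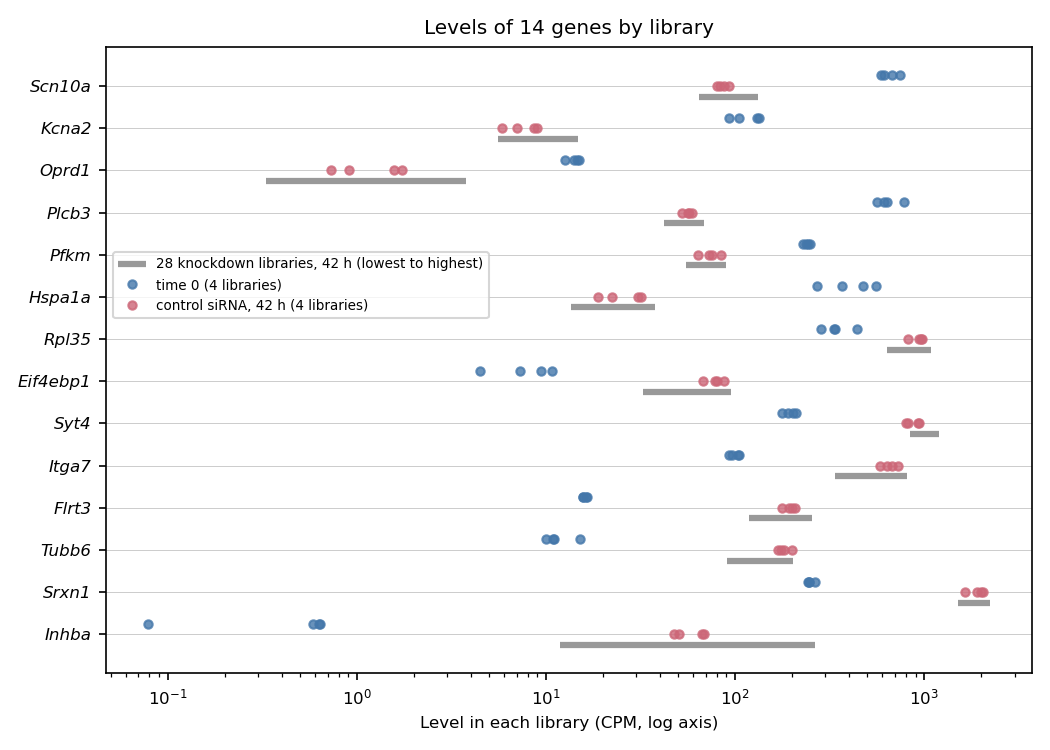
Levels of 14 genes in each library (CPM, log axis), time 0 and control siRNA at 42 h in separate colours. A grey bar gives the range of the 28 knockdown libraries. The points were scaled over these 8 libraries and the bar over all siRNA libraries together, so their scales differ somewhat. Tubb6 sat at 10.9, 15.2, 10.01 and 11.05 CPM at time 0 and 181, 199.7, 169 and 176 CPM at 42 h.

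Genes of synaptic adhesion proteins and classical cadherins mostly fell, and clustered protocadherins stood near the background. Of 19 neurexins, neuroligins, contactins and Lrrtm genes 1 rose, 15 fell and 3 did not pass (median -1.26), and of 15 classical cadherins 2 rose, 8 fell and 5 did not pass (median -1.29). The endothelial cadherin Cdh5 was among the risers (1.83 ± 0.15). Cdh1, E-cadherin, was at 129.7, 107, 134 and 104 CPM in the time 0 libraries and 17.5, 14.6, 16.2 and 18.3 CPM at 42 h (log2 fold change -2.84 ± 0.12, adjusted p = 1.3e-08). The clustered protocadherins, whose shared 3' exons make their counts uncertain, gave 5 rises and 11 falls among 40. Axon guidance genes were split (14 rose, 26 fell and 22 did not pass of 62), with the transmembrane semaphorin Sema6a at 7.04, 8.64, 4.53 and 6.82 CPM in the time 0 libraries and 132, 160.4, 133 and 153.5 CPM at 42 h (log2 fold change 4.43 ± 0.15, adjusted p = 2.9e-09) and Plxna4, a plexin that binds class 6 semaphorins, rising from 35.5 ± 3.37 to 143 ± 6.89 CPM. Neurotrophin and GDNF receptors fell in 11 of 16 cases, including Ntrk2, the BDNF receptor (-1.56 ± 0.16), and Ntrk3, the neurotrophin-3 receptor (-1.66 ± 0.16).

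The transcription factors that assign sensory identity fell with those effectors. Of 26 listed 2 rose, 19 fell and 5 did not pass (median -0.98). Etv1, an ETS factor of proprioceptors, was at 69.6, 80.8, 53.97 and 95.1 CPM in the time 0 libraries and 9.14, 10.9, 6.15 and 14.01 CPM at 42 h (log2 fold change -2.91 ± 0.23, adjusted p = 1.4e-06). Prdm12, needed for nociceptor development, went from 191 ± 26.1 to 42.1 ± 4.94 CPM. Pou4f1, the BRN3A factor shared by most sensory neurons, fell less, from 210.0 ± 24.4 to 117 ± 11.1 CPM, and Isl1 did not pass (-0.09 ± 0.09). The positional Hox genes changed in 1 and 7 of 25 cases, up and down; Hoxd1, a Hox gene of nociceptors, went from 43.3 ± 7.45 to 1.81 ± 0.911 CPM. Sox11, a SoxC factor of immature and growing neurons, was at 4.001, 3.895, 4.23 and 3.93 CPM in the time 0 libraries and 41.7, 33.9, 45.3 and 37.5 CPM at 42 h (log2 fold change 3.31 ± 0.15, adjusted p = 2e-08).

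Chromatin genes as lists stood closer to the background, and the subunits of the SWI/SNF complex moved in both directions. Of 21 SWI/SNF genes 7 rose, 4 fell and 10 did not pass (median 0.12). During development, neural progenitors use the subunits Phf10, Ss18 and Actl6a, and postmitotic neurons exchange them for relatives that include Dpf1, Dpf3, Ss18l1 and Actl6b. Phf10 was at 21.4, 23.3, 21.7 and 24.5 CPM in the time 0 libraries and 81.9, 64.8, 81.7 and 69.5 CPM at 42 h (log2 fold change 1.71 ± 0.11, adjusted p = 2.4e-07). Ss18 went from 9.99 ± 1.83 to 28.4 ± 2.203 CPM and Actl6a from 20.8 ± 4.303 to 29.35 ± 2.62 CPM (0.50 ± 0.15, adjusted p = 0.016). Actl6b was at 81.5, 93.2, 101 and 85.2 CPM in the time 0 libraries and 31.6, 42.2, 42.6 and 45.8 CPM at 42 h (log2 fold change -1.14 ± 0.12, adjusted p = 9e-06). Dpf3 also fell, from 11.02 ± 4.83 to 3.12 ± 1.64 CPM, but its groups overlapped. Dpf1 (-0.23 ± 0.31) and Ss18l1 (0.40 ± 0.21) did not pass. The other falls in the list were Smarcd3 (-1.74 ± 0.16) and Smarca2 (-0.94 ± 0.15), an ATPase of the complex. Actl6b was still above Actl6a per length at 42 h. Of 24 DNA methylation and Polycomb genes 11 rose, 5 fell and 8 did not pass (median 0.20). Among 18 histone deacetylases and acetyltransferases 4 rose, 4 fell and 10 did not pass, and Hdac11 fell furthest, from 97.2 ± 4.29 to 17.3 ± 1.22 CPM.

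The translation machinery rose broadly and by small amounts. Of 80 cytosolic ribosomal protein genes 76 rose, 1 fell and 3 did not pass (median 0.63, 6 of them by at least 2-fold, against 10.8% of all tested genes). Many have processed pseudogenes that can share reads, so single members are uncertain. Rpl35 was at 332, 283, 439 and 336 CPM in the time 0 libraries and 968, 936, 965 and 825 CPM at 42 h (log2 fold change 1.41 ± 0.12, adjusted p = 1.9e-06). Rpl3, the exception, fell from 689 ± 41.7 to 611 ± 27.9 CPM (-0.17 ± 0.06) and lost the call in 9 of 19 alternative analyses. Of 34 ribosome biogenesis genes 27 rose, 0 fell and 7 did not pass (median 0.79). The mitochondrial ribosomal proteins stood near the background (19 rose, 12 fell and 47 did not pass of 78, median 0.07).

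Of 53 initiation factors and their regulators 30 rose, 6 fell and 17 did not pass (median 0.34), and several paralogues moved apart. Eif4e, which binds the mRNA cap, was at 126, 149, 168 and 154 CPM in the time 0 libraries and 486, 452, 473 and 474 CPM at 42 h (log2 fold change 1.66 ± 0.09, adjusted p = 4.5e-08). Its inhibitor Eif4ebp1 was at 10.8, 9.42, 7.33 and 4.46 CPM in the time 0 libraries and 78.45, 86.9, 80.5 and 67.9 CPM at 42 h (log2 fold change 3.28 ± 0.19, adjusted p = 1.3e-07). The helicase Eif4a1 went from 349 ± 20.5 to 616 ± 34.2 CPM while its relative Eif4a2 went from 1132 ± 43.7 to 679 ± 59.9 CPM. Eif5a went from 578 ± 25.3 to 835 ± 22.1 CPM and Eif5a2 from 107 ± 11.001 to 41.8 ± 2.61 CPM. Of 47 proteasome genes 33 rose, 4 fell and 10 did not pass (median 0.40), and Psmb8, a subunit of the immunoproteasome, was among those that fell (-0.86 ± 0.21). Splicing factors (33 rose, 4 fell and 18 did not pass of 55, median 0.34) and nuclear pore and importin genes (19 rose, 2 fell and 19 did not pass of 40, median 0.30) leaned the same way.

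The respiratory chain moved in the opposite direction. Of 37 complex I genes 0 rose, 31 fell and 6 did not pass (median -0.38). Ndufb3, an accessory subunit, was at 232.5, 241, 208 and 236 CPM in the time 0 libraries and 115, 126, 116 and 104 CPM at 42 h (log2 fold change -0.99 ± 0.08, adjusted p = 1.2e-06). Falls outnumbered rises in complexes II and III (1 rose and 8 fell of 13), complex IV (1 and 10 of 15), ATP synthase (0 and 9 of 17) and the TCA cycle (2 and 12 of 22). Of 13 mRNAs encoded in mitochondria 0 rose, 9 fell and 4 did not pass (median -0.74). mt-Co1, a subunit of complex IV, was at 10922, 11345, 10686 and 12185 CPM in the time 0 libraries and 5429, 4374, 5251 and 5553 CPM at 42 h (log2 fold change -1.13 ± 0.08, adjusted p = 4.9e-07).

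**Figure D4:**
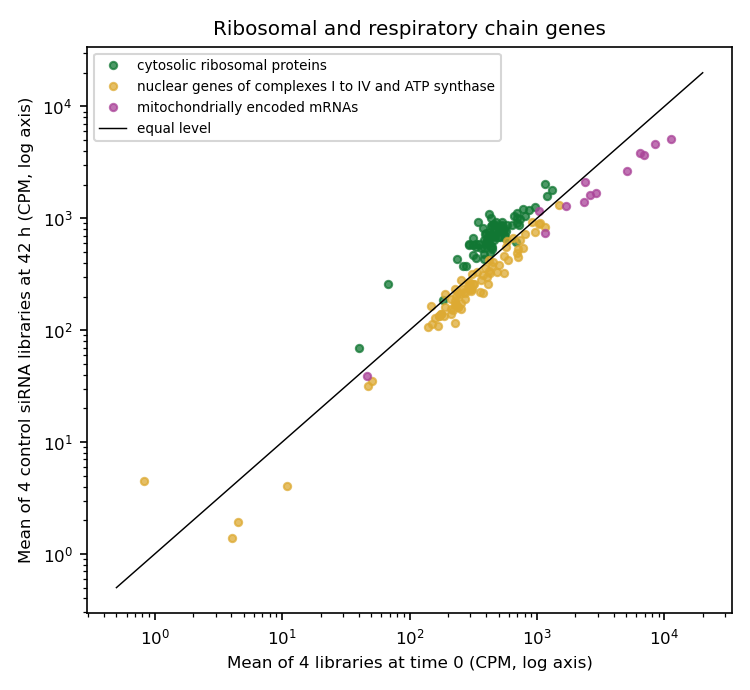
Mean level of each cytosolic ribosomal protein and respiratory chain gene at time 0 (x axis) and at 42 h with control siRNA (y axis), both in CPM on log axes, with the line of equal level. Of 80 ribosomal protein genes 76 rose, and of 37 complex I genes 31 fell.

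The ETS-type motif CCGGAAG was searched on both strands in the 250 bases before each RefSeq start (GRCm38.p6), and it was present in 18 of 57 matched ribosomal protein genes that rose, 11 of 28 proteasome genes that rose and 2 of 28 complex I genes that fell. It was present in 0 of 9 sodium channel genes that fell. Its share was 7.83% among all 27018 genes with a promoter in the table and 15.1% among the 10259 tested ones. A match describes letters in this window and shows neither binding nor a cause.

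Glycolytic genes did not share a direction. Of 23 genes 7 rose, 11 fell and 5 did not pass (median -0.11). Slc2a1, the GLUT1 glucose transporter, was at 47.8, 46.2, 46.6 and 38.7 CPM in the time 0 libraries and 195, 177, 159 and 160.1 CPM at 42 h (log2 fold change 1.94 ± 0.10, adjusted p = 3.8e-08). Hexokinase Hk2 went from 3.099 ± 0.871 to 10.03 ± 0.129 CPM and phosphoglycerate kinase Pgk1 from 496 ± 16.1 to 861 ± 25.02 CPM. Pfkm, a phosphofructokinase subunit, was at 248, 242, 238 and 228 CPM in the time 0 libraries and 72.98, 84.1, 63.5 and 75.2 CPM at 42 h (log2 fold change -1.69 ± 0.09, adjusted p = 4.8e-08). Lactate dehydrogenase Ldha went from 634 ± 34.8 to 273 ± 26.7 CPM and the aldolase Aldoc from 202 ± 18.1 to 40.4 ± 9.72 CPM. Within the pathway, Slc2a1, Hk2 and Pgk1 thus rose while Pfkm, Aldoc and Ldha fell. Of 7 pentose phosphate genes 3 rose, 0 fell and 4 did not pass.

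Of 22 antioxidant genes known as NRF2 targets 13 rose, 5 fell and 4 did not pass (median 0.60). Srxn1, which repairs oxidised peroxiredoxins, was at 243, 263, 246 and 245 CPM in the time 0 libraries and 1996, 2032, 1890.4 and 1632 CPM at 42 h (log2 fold change 2.92 ± 0.08, adjusted p = 7.9e-10). Slc7a11, the cystine transporter, was at 0, 0.196, 0.0456 and 0.0543 CPM in the time 0 libraries and 9.16, 11.5, 13.1 and 16.7 CPM at 42 h (log2 fold change 7.34 ± 0.53, adjusted p = 5.6e-07). Prdx1, a peroxiredoxin, went from 234 ± 8.87 to 1062 ± 148 CPM. No library at time 0 reached the lowest level at 42 h for these 3 genes. The ferritin subunits moved unequally: Ftl1, the light chain, went from 1349.8 ± 142 to 3859.5 ± 129 CPM, and Fth1, the heavy chain, did not pass (-0.07 ± 0.05); both have pseudogenes that can take reads.

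Of 7 metallothionein and zinc transporter genes 5 rose, 1 fell and 1 did not pass. Mt1, a metal-binding protein, was at 290.3, 264, 279.9 and 176 CPM in the time 0 libraries and 589, 650.0, 586 and 586 CPM at 42 h (log2 fold change 1.25 ± 0.13, adjusted p = 1.1e-05), and Mt2 went from 168 ± 48.3 to 397 ± 78.85 CPM. Mt3, the neuronal metallothionein, fell from 509 ± 33.4 to 252 ± 44.05 CPM. Of 19 heat shock genes 3 rose, 8 fell and 8 did not pass, and the risers were the small heat shock proteins Cryab, Hspb1 and Hspb8. Hspa1b, an inducible HSP70 whose near-identical copy Hspa1a shares reads with it, was at 829.7, 543, 695.5 and 353 CPM in the time 0 libraries and 30.1, 28.8, 32.4 and 26.3 CPM at 42 h (log2 fold change -4.36 ± 0.24, adjusted p = 8.7e-08). Cryab, alpha B crystallin, was at 94.1, 97.3, 91.9 and 85.4 CPM in the time 0 libraries and 425, 369, 411 and 354 CPM at 42 h (log2 fold change 2.08 ± 0.08, adjusted p = 6.3e-09).

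Lysosomal genes rose in 13 and fell in 7 of 28 cases, and autophagy genes in 7 and 7 of 25. The tetraspanin Cd63, carried by late endosomes, was at 102, 86.8, 104 and 90.7 CPM in the time 0 libraries and 793, 608, 725 and 626 CPM at 42 h (log2 fold change 2.84 ± 0.10, adjusted p = 4.3e-09). Among drug-metabolising enzymes, the cytochrome P450 list held 6 rises and 12 falls of 20. Cyp1a1, the classic target of the aryl hydrocarbon receptor, was at 0.355, 0.3605, 0 and 0.199 CPM in the time 0 libraries and 12.8, 15.6, 18.3 and 15.2 CPM at 42 h (log2 fold change 5.74 ± 0.38, adjusted p = 3.2e-07), and its relative Cyp1b1 went from 12.4 ± 2.03 to 30.3 ± 4.27 CPM. The imprinted genes gave 6 rises and 7 falls of 14; Peg3, a paternally expressed zinc finger gene, fell from 99.6 ± 11.04 to 43.99 ± 3.06 CPM and Grb10, an adaptor of the insulin receptor, rose from 20.1 ± 3.01 to 61.01 ± 5.71 CPM.

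The cytoskeleton changed by isoform. Of 13 tubulins 3 rose, 9 fell and 1 did not pass (median -0.47). Tubb6 was at 10.9, 15.2, 10.01 and 11.05 CPM in the time 0 libraries and 181, 199.7, 169 and 176 CPM at 42 h (log2 fold change 3.94 ± 0.12, adjusted p = 1.4e-09) and Tuba1c went from 23.2 ± 1.15 to 147 ± 7.95 CPM. Tubb4a, a neuronal beta tubulin, went from 806 ± 12.4 to 281 ± 35.7 CPM. Of 39 actin regulators 25 rose, 6 fell and 8 did not pass (median 0.32). Among 27 microtubule-associated proteins, stathmins and CRMPs 5 rose, 15 fell and 7 did not pass, and Stmn4, a stathmin related to Stmn2, was at 36.5, 33.5, 27.9 and 28.6 CPM in the time 0 libraries and 490.0, 444, 464 and 424 CPM at 42 h (log2 fold change 3.85 ± 0.10, adjusted p = 7.3e-10). Of 47 motor genes 8 rose, 24 fell and 15 did not pass, and the chromosome-associated kinesin Kif22 went from 13.1 ± 6.29 to 149 ± 27.3 CPM. Nes, the intermediate filament nestin of progenitors and immature Schwann cells, rose from 4.44 ± 0.779 to 92.9 ± 9.97 CPM, and Vim, vimentin, from 364 ± 44.1 to 1768 ± 116 CPM.

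**Figure D5:**
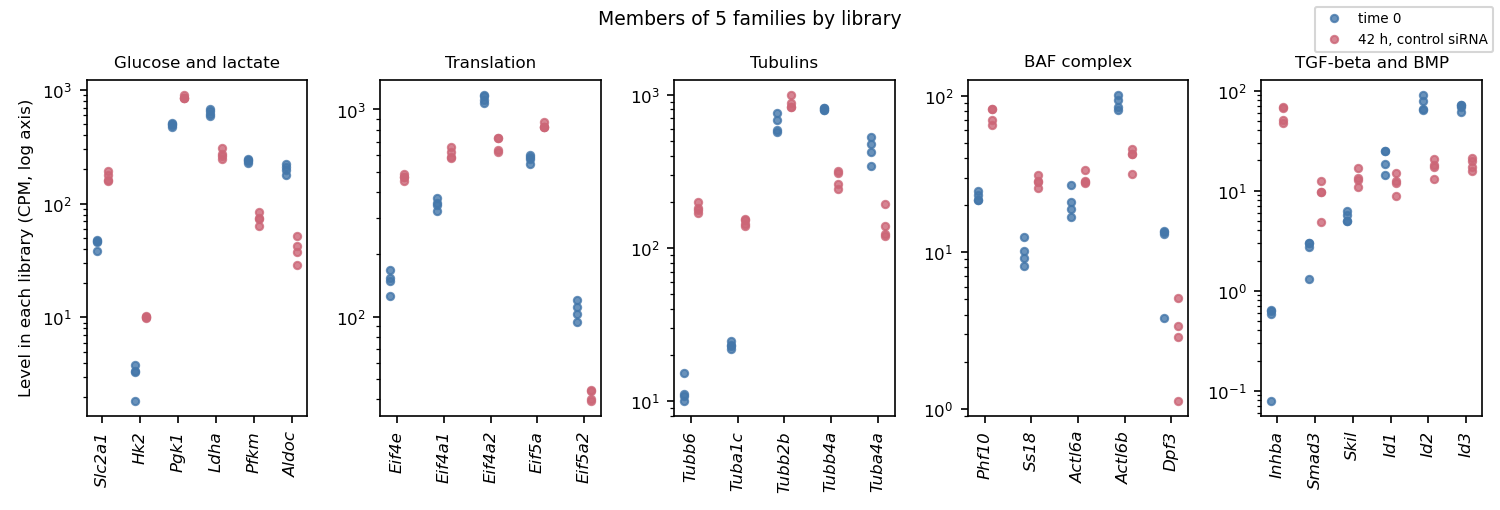
Level of single members of 5 families in each library (CPM, log axis), with time 0 and control siRNA libraries at 42 h in separate colours. In each panel members moved apart, as for Tubb6 (10.9, 15.2, 10.01 and 11.05 CPM at time 0, 181, 199.7, 169 and 176 CPM at 42 h) and Tubb4a (816, 817, 796 and 794 CPM, 308, 315, 242 and 261 CPM).

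Matrix and adhesion genes shifted upward. Of 25 collagens 14 rose, 5 fell and 6 did not pass (median 1.08), of 14 laminin and basement membrane genes 9 rose, 1 fell and 4 did not pass (median 1.37), and of 14 integrins 9 rose, 1 fell and 4 did not pass (median 0.74). Col18a1, a basement membrane collagen, was at 7.18, 6.85, 8.09 and 5.88 CPM in the time 0 libraries and 76.7, 73.1, 105 and 95.1 CPM at 42 h (log2 fold change 3.63 ± 0.16, adjusted p = 1.7e-08). Itga7, a laminin-binding integrin of regrowing axons, was at 104, 105, 96.1 and 92.6 CPM in the time 0 libraries and 729, 674, 581 and 636 CPM at 42 h (log2 fold change 2.72 ± 0.08, adjusted p = 1.4e-09). Itga5, the fibronectin receptor subunit, went from 3.39 ± 2.53 to 33.9 ± 4.94 CPM. The endothelial list rose and the fibroblast list was split, as given above, and the fibroblast risers Col1a1 and Col3a1 are themselves collagens. Which cells carried these transcripts was not tested.

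Matrix proteases and their inhibitors gave 21 rises and 14 falls of 43. Mmp3, stromelysin, was at 0 in all time 0 libraries and at 52.6, 24.96, 20.3 and 33.9 CPM at 42 h, at least 174-fold higher taking 3 reads over the group as the floor. Timp1, a metalloprotease inhibitor, was at 4.71, 3.196, 3.25 and 2.83 CPM in the time 0 libraries and 138, 134, 93.8 and 119 CPM at 42 h (log2 fold change 5.12 ± 0.18, adjusted p = 4.3e-09). Plaur, the urokinase receptor, was at 22.5, 11.5, 12.9 and 9.07 CPM in the time 0 libraries and 282, 275, 255 and 254 CPM at 42 h (log2 fold change 4.25 ± 0.19, adjusted p = 2e-08). Its ligand Plau did not pass (-0.45 ± 0.24), and the other plasminogen activator, Plat, rose from 10.8 ± 1.44 to 46.3 ± 3.94 CPM. Timp2, the most abundant member at time 0, fell from 701 ± 25.4 to 364 ± 52.6 CPM.

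Of 21 genes known as targets of the mechanosensitive factors YAP and SRF 12 rose, 2 fell and 7 did not pass (median 0.49). The 2 that fell were Ccn1 (log2 fold change -1.85) and Myl9 (-1.63). SRF binds the CArG box, and a search of both strands found a CArG box in the 250 bases before the start of 3 of the 10 risers that had a RefSeq promoter, against 1.62% of all 27018 genes and 1.34% of the 10259 tested genes. These stretches of the 3 promoters are shown because they hold the box, which stands in capitals (RefSeq, GRCm38.p6, printed 5′ to 3′ on the gene's strand). Actg1, cytoplasmic gamma actin, lies at chr11:120348556-120348605, minus strand, Cnn2, calponin 2, at chr10:79988524-79988573, plus strand, and Vcl, vinculin, at chr14:20929151-20929200, plus strand.
Actg1: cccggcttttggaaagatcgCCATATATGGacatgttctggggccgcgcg
Cnn2: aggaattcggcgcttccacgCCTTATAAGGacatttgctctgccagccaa
Vcl: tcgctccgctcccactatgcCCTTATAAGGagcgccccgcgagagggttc
Actg1 rose from 3286 ± 12.98 to 4035 ± 265 CPM (0.30 ± 0.06), Cnn2 from 3.75 ± 1.297 to 14.99 ± 3.07 CPM (1.98 ± 0.26) and Vcl from 49.3 ± 1.11 to 69.6 ± 3.41 CPM (0.49 ± 0.08). A match describes the letters only, and occupancy by SRF was not measured. The list was made of known targets, and no share was taken for its members that did not rise. The share among risers therefore says nothing about the change at 42 h.

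Cell division genes were low, and most of those that passed rose. Of 28 DNA replication genes 14 rose, 2 fell and 12 did not pass (median 0.77), of 18 mitosis genes 9 rose, 1 fell and 8 did not pass (median 1.08), and of 17 replication-dependent histones, whose clustered copies share reads and whose transcripts mostly lack the poly(A) tail, 10 rose, 0 fell and 7 did not pass. Cdk1, the mitotic kinase, was at 0, 1.304, 0.363 and 1.77 CPM in the time 0 libraries and 7.12, 12.2, 10.5 and 16.5 CPM at 42 h (log2 fold change 3.73 ± 0.54, adjusted p = 0.00013). Top2a, the topoisomerase of dividing cells, was at 0.174, 0.675, 0 and 1.34 CPM in the time 0 libraries and 5.13, 5.35, 8.21 and 8.99 CPM at 42 h (log2 fold change 3.63 ± 0.58, adjusted p = 0.00026). Cdkn1a, the p21 inhibitor of the cycle, was far more abundant and went from 59.4 ± 4.61 to 791 ± 54.1 CPM, and Ccnd1, cyclin D1, from 13.3 ± 1.71 to 129.9 ± 36.4 CPM. Mature neurons do not divide. The non-neuronal genes given above moved in both directions, and which cells carried the cell division transcripts was not tested.

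Mitotic genes commonly carry CCAAT boxes, bound by NF-Y, and CHR elements, TTTGAA or TTTAAA, bound by complexes that repress or activate with the cycle. CCAAT was found on either strand in 4 of the 5 mitosis genes that rose and had a RefSeq promoter, against 37.5% of all genes and 40.3% of tested genes. A CHR was found in 5 of 5, against 28.1% of all genes and 20.3% of tested genes. In DNA replication genes that rose, 10 of 14 had CCAAT and 2 of 14 a CHR. The stretches that hold the matches are shown for 3 genes, with both motifs in capitals (RefSeq, GRCm38.p6, 5′ to 3′ on the gene's strand): Cdk1 at chr10:69352913-69353012, minus strand, Prc1, a spindle midzone protein, at chr7:80294394-80294471, plus strand, and Top2a at chr11:99024190-99024358, minus strand.
Cdk1: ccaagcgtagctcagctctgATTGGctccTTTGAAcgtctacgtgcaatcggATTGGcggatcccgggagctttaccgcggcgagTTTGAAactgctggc
Prc1: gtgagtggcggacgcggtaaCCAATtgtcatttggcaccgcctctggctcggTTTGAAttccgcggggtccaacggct
Top2a: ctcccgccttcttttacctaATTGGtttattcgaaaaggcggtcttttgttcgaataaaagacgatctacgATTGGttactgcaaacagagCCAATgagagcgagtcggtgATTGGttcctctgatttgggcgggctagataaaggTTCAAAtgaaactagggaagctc
Prc1 rose from 4.52 ± 1.56 to 18.7 ± 4.02 CPM (2.05 ± 0.26). The short CHR is frequent by base composition, and a match shows no binding. Both motifs are common in mitotic genes, and no share was taken for list members that did not rise. These shares therefore say nothing about the change at 42 h.

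Secreted signals and their receptors changed in several families. Of 30 TGF-beta and BMP genes 16 rose, 10 fell and 4 did not pass (median 0.54). Inhba, the activin A subunit, was at 0.633, 0.642, 0.583 and 0.07896 CPM in the time 0 libraries and 66.6, 68.4, 50.2 and 47.6 CPM at 42 h (log2 fold change 6.86 ± 0.31, adjusted p = 1.8e-08). Smad3, which carries activin and TGF-beta signals, rose from 2.51 ± 0.801 to 9.22 ± 3.198 CPM. Id2 and Id3, standard BMP target genes, fell from 74.6 ± 12.3 to 17.2 ± 3.12 CPM and from 68.4 ± 5.44 to 18.5 ± 2.403 CPM. Inhba and Smad3 were thus higher and Id2 and Id3 lower, without overlap between groups. These 4 genes do not stand for their branches. In the same list the BMP gene Bmp6 was among the 5 largest rises without overlap. Nog, which encodes a BMP antagonist, was the largest such fall. A difference between the activin and BMP branches was not tested.

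Among 20 cytokines and chemokines 8 rose, 6 fell and 6 did not pass. Clcf1, a cytokine that signals through the CNTF receptor, went from 2.33 ± 1.17 to 21.5 ± 6.12 CPM. Csf1, the macrophage growth factor that neurons make, was at 11.7, 16.9, 11.5 and 12.1 CPM in the time 0 libraries and 92.7, 107, 89.9 and 97.6 CPM at 42 h (log2 fold change 2.89 ± 0.13, adjusted p = 1.7e-08). Il34, the other ligand of the same receptor, rose from 19.4 ± 2.599 to 67.2 ± 7.26 CPM. Il6 fell from 10.8 ± 3.33 to 1.37 ± 0.354 CPM and Cxcl10, an interferon-induced chemokine, from 55.2 ± 20.8 to 14.9 ± 2.904 CPM. Of 8 complement genes 0 rose, 7 fell and 1 did not pass, and Cd55, which protects cells from complement, was at 488, 426, 532 and 462 CPM in the time 0 libraries and 42.6, 39.6, 53.9 and 44.2 CPM at 42 h (log2 fold change -3.40 ± 0.11, adjusted p = 1.8e-09).

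Of 11 TNF receptor family genes 7 rose, 3 fell and 1 did not pass (median 1.32). Tnfrsf12a, the receptor for TWEAK, was at 16.7, 17.4, 18.2 and 15.1 CPM in the time 0 libraries and 455, 456, 442 and 379 CPM at 42 h (log2 fold change 4.68 ± 0.10, adjusted p = 2.3e-10). Tnfrsf1a, the main TNF receptor, rose from 20.7 ± 1.703 to 51.8 ± 5.1003 CPM, and Tnfrsf11a, the RANK receptor, fell from 16.9 ± 1.399 to 3.79 ± 1.04 CPM. FGF genes gave 3 rises and 7 falls of 11, and Fgf13, an intracellular FGF that binds sodium channels, was at 759, 694, 898 and 737 CPM in the time 0 libraries and 113, 125, 127 and 111 CPM at 42 h (log2 fold change -2.69 ± 0.09, adjusted p = 2.7e-09). IGF-binding proteins moved apart: Igfbp3 rose from 11.4 ± 1.41 to 186 ± 15.3 CPM and Igfbp4 fell from 90.3 ± 26.5 to 8.699 ± 4.11 CPM. Of 20 dual-specificity phosphatases, some of which switch off MAP kinases, 11 rose, 7 fell and 2 did not pass. Dusp9 was at 0 in all time 0 libraries and at 12.1, 13.7, 9.83 and 13.4 CPM at 42 h, at least 76.96-fold higher taking 3 reads over the group as the floor, and Dusp26 fell from 284 ± 43.2 to 112 ± 11.7 CPM.

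Wnt, Notch and clock genes lay nearer the background shares. Of 19 Wnt genes 4 rose, 7 fell and 8 did not pass, of 17 Notch genes 3 rose, 7 fell and 7 did not pass, and of 17 clock genes 4 rose, 6 fell and 7 did not pass. Arntl, the clock activator BMAL1, rose from 2.02 ± 0.574 to 8.05 ± 0.981 CPM, and Dbp, an output gene of the clock, fell from 14.1 ± 3.99 to 6.41 ± 1.804 CPM. The time of day of either collection was not given in the sources used here.

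Outside the lists, the 20 largest rises and falls with at least 20 CPM in the higher group were examined, and those named here were picked among them with their values known. Injury genes such as Sprr1a and itch receptors such as Mrgprx1, which stood at the top, are not described here. Lgals3, galectin 3, which ranked 10 among the rises, was at 24.5, 28.6, 25.1 and 17.9 CPM in the time 0 libraries and 933, 770.0, 798 and 697 CPM at 42 h (log2 fold change 5.05 ± 0.14, adjusted p = 8e-10). Mustn1, a small nuclear protein of muscle and bone, rose 53.9-fold to 418 ± 87.98 CPM, and the secreted glycoprotein Angptl2 rose 26.98-fold to 245 ± 26.001 CPM. Areg, an EGF receptor ligand, went from 1.23 ± 0.574 to 20.3 ± 8.52 CPM. Among the falls, the immediate early transcription factor genes Fos and Fosb ranked 10 and 12. Fos was at 587, 525, 592 and 488 CPM in the time 0 libraries and 16.7, 24.9, 27.8 and 16.3 CPM at 42 h (log2 fold change -4.64 ± 0.16, adjusted p = 2.6e-09), and Fosb went from 153 ± 19.4 to 6.525 ± 0.9698 CPM. In both the groups did not overlap. Tmem233, a membrane protein, was at 718, 619.7, 890.3 and 625 CPM in the time 0 libraries and 41.1, 39.2, 51.2 and 34.8 CPM at 42 h (log2 fold change -4.09 ± 0.15, adjusted p = 4.7e-09). Rasgrp1, a calcium-responsive Ras activator, fell 19.9-fold from 118 ± 17.8 CPM, and Rnf112, a neuronal ubiquitin ligase, fell 22.2-fold from 138 ± 20.3 CPM.

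The other siRNA libraries, 28 in 7 knockdown groups at the same time point, were not tested here and share the time 0 libraries with the comparison above, so their levels are given only side by side, after scaling all siRNA libraries together. Scn10a spanned 64.3 to 132 CPM across those 28 libraries and 82.95 to 95.9 CPM with control siRNA, below 613 to 775 CPM at time 0. Plcb3 spanned 41.8 to 68.75 CPM and 54.6 to 61.4 CPM, below 586 to 812 CPM. Fabp7 spanned 5.41 to 29.5 CPM and 7.65 to 14.4 CPM, below 417 to 535 CPM. The control siRNA range lay inside the knockdown range for these 3 genes. Nts spanned 370.4 to 683 CPM and 429.9 to 568 CPM, above 9.82 to 17.4 CPM at time 0. Srxn1 spanned 1501 to 2224 CPM and 1698 to 2112 CPM, above 253 to 273 CPM. These 5 genes were picked after their values were seen, as examples from 5 of the lists above, and do not stand for the others. The knockdown libraries overlapped time 0 for Calcb (197 to 838 CPM against 275 to 388 CPM), for Actl6a (20.7 to 44.25 CPM against 17.4 to 27.7 CPM) and for Cacna2d1 (99.2 to 185 CPM against 99.2 to 111 CPM).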

How the data were processed

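RNA was extracted with a Qiagen RNeasy micro kit and libraries were made with Illumina Stranded mRNA Prep, per the labels' protocols. The authors deposited estimated counts per gene; the submitters' processing notes name kallisto and the build GRCm39, and neither a version nor the scaling is stated there. In the deposited estimated counts, the value of 1 read times transcript length came to 2061 to 2234 bases per library, so the values carry a length weight and the CPM computed from them are per length. The table holds 34183 genes, of which 32470 (95.0%) have a symbol. The table of mRNA transfections was not used.

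Values were rounded, filtered with filterByExpr (minimum count 10) and tested with edgeR 4.0.16 (TMM scaling, quasi-likelihood test, R 4.3.3), control siRNA minus time 0, with only these 8 libraries in the fit and p-values adjusted by Benjamini-Hochberg over the 13448 genes tested. SEs are the log2 fold change divided by the square root of the test's F. A floor of 3 reads over the group was used for genes at 0, and this floor covers counting error only. On counts simulated for this comparison over 13464 genes, the test recovered 17.9% of genes changed 1.5-fold, 82.1% at 2-fold and 98.5% at 4-fold, with 16 false calls. That simulation changed only 67, 67 and 66 genes at these folds and gave every gene the same dispersion. In the real comparison 57.9% of tested genes were called, so these shares do not give the power of the reported test. Alternatives were RLE, upper quartile and total count scaling, TMM without non-neuronal and mitochondrial genes, DESeq2 1.42.0, limma-voom (limma 3.58.1), other filters, all siRNA groups in 1 fit, a replicate block and each library left out; undoing the length weight was added after seeing the data.

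The 140 gene lists (4192 genes), the comparison and its members were chosen with earlier results of these data known. The text draws its named genes from the 1265 that this rule admits: per list, up to 5 rises and 5 falls with the largest change that passed without overlap between groups, the 3 genes of highest level, all cell class markers, and 20 rises and 20 falls outside the lists that reached 20 CPM. Cckar, Dpf1, Dpf3, Eif4a1, Eif5a, Oprm1, Plat, Plau, Scn2a, Scn3a, Scn9a, Ss18l1, Tnfrsf1a and Vcl fall outside that rule and were chosen after their values were seen. Most of the 1265 are not reported here, and those shown were picked with their values known. Promoter sequences are from RefSeq (GRCm38.p6), a different build from the authors', so they were matched by symbol. No batch is given in the labels.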

Additional observations from a re-analysis of the deposited data

Results flagged for a closer look

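In all, 442 sets of 4 values were examined, from named genes and summed marker lists in each group. Of these, 19 had a library that stood apart from the other 3, with a gap to its nearest neighbour above Dixon's critical value. Chance flags about 1 in 20 such groups.

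At time 0, the library that stood apart was the highest for Csf1 (16.9 CPM), Il6 (15.8 CPM), Nts (16.8 CPM) and Srxn1 (263 CPM), and the lowest for Dpf3 (3.79 CPM), Hspb1 (569 CPM) and Smad3 (1.32 CPM). The summed endothelial list was highest in a time 0 library at 283 CPM. At 42 h the library that stood apart was the highest for Actl6a (33.3 CPM), Eif5a (868 CPM), Kif22 (189.9 CPM), Mt1 (649.96 CPM), Nes (108 CPM), Rgs8 (3.90 CPM), Scg3 (470.4 CPM) and Syt1 (98.1 CPM). At 42 h it was the lowest for Camk1 (308 CPM), for the summed endothelial list (365 CPM) and for the summed red cell list (4.21 CPM). Except for the red cell and endothelial sums, which were not tested as sums, each of these genes kept its call when any library was left out.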

How the results depend on the processing

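No gene called in the reported fit had a call of opposite sign in any of the 19 alternatives, and total calls (7781) ranged from 6283 with a minimum count of 50 to 8592 with all siRNA groups in 1 fit. With the minimum count of 50, which tests fewer genes, 887 genes rose and 1143 fell by at least 2-fold, against 1456 and 1803. Leaving out each library gave 7385 to 7599 calls. With total counts only, the median of all genes moved to 0.11 and the share of calls that were higher to 56.6%, against 49.5%.

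Of 3680 values for 195 named genes, 3655 kept their direction and side of the threshold; the others belong to P2rx3, Ret, Rpl3 and Ss18l1, and the cause was not tested. Of 2469 list medians, 2273 moved by less than the spread between replicates. Among lists with a median of at least 0.1 in size the sign changed for macrophages (5.18 at the minimum count of 50 and 1.57 with the length weight undone, against -1.96), cholesterol efflux and LXR targets (-0.04 against 0.12), cyclins and CDKs (-0.09 against 0.15), and insulin and FOXO genes (0.14 against -0.11), each at the minimum count of 50. It also changed for insulin and FOXO genes without time 0 replicate 3 (0.03) and for glutathione S-transferases with the length weight undone (-0.11 against 0.42). Of 13 lists with a median nearer 0, 11 changed sign under some alternative.

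Replicate numbers are shared between groups, but nothing in the labels pairs them: deviations of same-numbered libraries correlated at 0.047 to 0.135 and of others at -0.111 to 0.06, and 7 of 8 libraries correlated best with their own number, a hint from the data only. With the replicate block, 7844 genes were called. Depth limits the low genes: at these totals a level under 1 CPM rests on fewer than 10 counts in each library.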
